A study of Mus musculus with 16 samples.

Results

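The 41 genes described here are markers of microglia and macrophages, chosen by name as genes known to mark these cells. Each was found on 1 of the 55471 lines of both expression tables. They were measured by RNA-seq of polyA RNA in cultures of neural stem cells (NSC) from the embryonic cortex of C57BL/6 mice, taken at E15-16. Cultures carried a lentiviral shRNA, either a scrambled control (shRNA CON) or one against the long noncoding RNA RUS (shRNA RUS), and were collected at the labelled times of day 5 or day 7, giving 4 groups of 4 libraries, or 16 libraries. All groups shared the growth medium with B27, FCS and FGF2 up to the switch, at day 5, to Neurobasal with GlutaMax and B27 that starts differentiation. The cortices came from pooled brains of both sexes, cells could be passaged with trypsin, and virus was given to the whole dish. The shRNA vector carries a puromycin resistance gene. The paper swapped this gene for GFP in its apoptosis assay, so that puromycin selection would not kill cells there. Whether the cultures sequenced here were selected with puromycin is not given in the sources used here. No step directed at myeloid cells is described. The labels speak of 4 experiments per condition without saying whether these were separate preparations of cells, and p-values then measure the spread between these libraries, which may be technical. The question was whether homeostatic, activation and border-macrophage genes move together, as they would if only the share of 1 cell type changed.

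Microglia are the resident macrophages of the brain. They come from yolk sac precursors that enter the neural tube early, and they depend throughout life on the receptor Csf1r and its ligands Csf1 and Il34. Homeostatic microglia are known by P2ry12, Tmem119, Cx3cr1 and Fcrls, while phagocytosing or activated cells raise lysosomal and lipid-sensing genes such as Cd68, Trem2 and Lyz2. Macrophages at the borders of the brain, in the meninges and around vessels, are known by Mrc1 and Pf4 together with Lyve1 and Cd163. The transcription factor PU.1, encoded by Spi1, drives much of this program from purine-rich sites with a GGAA core.

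Levels are scaled TPM: the deposited TPM divided by a factor for each library (0.845 to 1.10), so that the median gene matched over the 16 libraries. Log2 fold changes are on the scale of log2(scaled TPM + 0.1) and understate the change of the lowest genes; errors of fold changes are standard errors (SE) of limma and errors of levels are SD of 4 libraries. The tables hold no counts, so depth is unknown. The authors' mean of normalized counts over the libraries of a day was 12.04 to 4177 on day 5 and 12.2 to 4448 on day 7 for the 40 members tested, with Cd74 the lowest, Pf4 at 17.8 and Gpr34 at 34.7 on day 5. RUS, listed as Gm20754, lay at 0 to 0.345 scaled TPM on day 5 and at 0 to 0.661 on day 7, and its groups overlapped on both days. At levels this near 0 a partial reduction may not show. For its transcriptome experiment the paper reports reduced RUS in the knockdown cells by RT-qPCR, which is a separate measurement. The library labelled shRNA RUS replicate 4 on day 5 held 0.345, more than any control of that day, and replicates 1 and 2 of shRNA RUS on day 7, at 0.5 and 0.348, lay within the control range. In that library of day 5, Csf1 (55.4 scaled TPM) and Cdk1 (70.3) lay below all controls of the day, as in the rest of its group, while Apoe, Lgals3, Cd68 and Tyrobp lay within the control range, unlike in the other 3 libraries of the group; these genes were named after their values were seen. The labels were used as they stand, and counts without these libraries are given beside the main ones. Markers of other blood cells were near 0: 15 genes of T, B, NK and mast cells and granulocytes summed to 0.399 ± 0.0926, 0.403 ± 0.105, 0.597 ± 0.203 and 0.555 ± 0.129 scaled TPM in shRNA CON and shRNA RUS on day 5 and on day 7, in that order, with S100a9 at 0 in every library. The 6 red cell genes summed to at most 0.666 scaled TPM on average in a group.

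Promoters of 5 members that fell on day 7 are printed to show where words of the PU.1 site stand in them. RefSeq promoters on GRCm38.p6, from 250 bases before to 50 bases after the start of the gene, matched 29 of the 41 members by symbol. The word GAGGAAGT, which PU.1 is known to bind, was searched on both strands and stood in 6 of these 29 (20.7%): C1qc, Cd53, Apbb1ip, Inpp5d, Ctss and Pf4. Among all 27025 genes with such an entry, 997 (3.69%) held it. The shorter core AGGAAG, which lies inside the longer word, stood in 22 of the 29 (75.9%) and in 38.4% of all genes. A match describes the letters of this window and not a bound site, and the words were not tested against any value. The 4 sequences below with the longer word belong to a complement subunit, a lysosomal protease, a tetraspanin and a chemokine, and that of Trem2 has only the core; each is written 5′ to 3′ on the strand of the gene. Capitals mark the longer word, and in Trem2 the core, each of which is on the opposite strand here and so reads as the reverse complement. Another match to the core alone, on the gene's own strand in C1qc, is left in lower case.
C1qc (chr4:136892865-136893164, minus strand): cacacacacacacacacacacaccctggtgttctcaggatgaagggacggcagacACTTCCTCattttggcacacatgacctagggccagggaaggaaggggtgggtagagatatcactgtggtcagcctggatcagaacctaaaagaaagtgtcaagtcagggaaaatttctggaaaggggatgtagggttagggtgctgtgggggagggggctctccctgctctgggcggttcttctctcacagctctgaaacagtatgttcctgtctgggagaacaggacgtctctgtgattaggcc
Ctss (chr3:95526536-95526835, plus strand): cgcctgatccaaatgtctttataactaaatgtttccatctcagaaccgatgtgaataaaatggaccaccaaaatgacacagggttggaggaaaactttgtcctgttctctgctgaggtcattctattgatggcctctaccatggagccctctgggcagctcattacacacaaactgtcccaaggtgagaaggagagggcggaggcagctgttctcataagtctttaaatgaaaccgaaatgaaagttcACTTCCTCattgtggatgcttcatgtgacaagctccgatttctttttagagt
Cd53 (chr3:106790100-106790399, minus strand): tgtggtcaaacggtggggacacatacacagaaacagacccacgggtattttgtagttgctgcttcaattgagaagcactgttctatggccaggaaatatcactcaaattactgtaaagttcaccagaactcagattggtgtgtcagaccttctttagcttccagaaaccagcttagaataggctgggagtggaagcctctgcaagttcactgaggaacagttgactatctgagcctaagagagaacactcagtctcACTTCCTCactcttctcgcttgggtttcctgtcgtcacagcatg
Pf4 (chr5:90772185-90772484, plus strand): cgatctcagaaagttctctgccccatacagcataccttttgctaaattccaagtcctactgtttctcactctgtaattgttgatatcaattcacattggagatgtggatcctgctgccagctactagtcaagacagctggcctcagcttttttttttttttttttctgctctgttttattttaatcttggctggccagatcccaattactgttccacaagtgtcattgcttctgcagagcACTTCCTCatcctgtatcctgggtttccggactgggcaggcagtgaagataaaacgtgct
Trem2 (chr17:48346151-48346450, plus strand): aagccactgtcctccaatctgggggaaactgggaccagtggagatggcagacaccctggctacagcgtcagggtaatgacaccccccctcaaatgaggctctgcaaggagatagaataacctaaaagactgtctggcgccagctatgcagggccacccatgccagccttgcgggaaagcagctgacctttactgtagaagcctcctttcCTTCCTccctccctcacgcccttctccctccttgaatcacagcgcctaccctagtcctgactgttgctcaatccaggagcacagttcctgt
Distances are counted from the start on which each RefSeq window rests. The marked words start 195 bases before that of C1qc, 2 before that of Ctss, 10 before that of Pf4 and 41 before that of Trem2, and 6 bases into Cd53. For C1qc this start lies inside the gene as placed by GENCODE, which starts at 136893065 on the minus strand. The distance of the C1qc word from the GENCODE start is therefore shorter.

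On day 7 almost the whole set was lower in shRNA RUS. Of the 41 members 40 passed the filter of a mean of 0.1 TPM, and Siglech, a sialic acid lectin of mouse microglia, did not, with 0 to 0.101 scaled TPM over all libraries. By limma with Benjamini-Hochberg adjustment over all genes, 35 of the 40 fell, beside 25.8% of all 24606 genes tested, 4 rose, beside 23.4%, and Cd74 was not called. The groups did not overlap for 34 lower members, beside 24.7% of all genes, and 4 higher ones, beside 22.3%. The median log2 fold change of the members was −0.861, and that of all genes −0.0293. The sum of the 41 members was 1183, 1129, 1061 and 1095 scaled TPM in shRNA CON and 722, 657, 689 and 608 in shRNA RUS. The groups did not overlap, and the mean of 669 ± 48.5 was 59.9% of the control mean of 1117 ± 52.0 (SD, n = 4). The 3 C1q genes and Lyz2 made up 40.3 to 43.1% of this sum in shRNA CON and 40.9 to 41.9% in shRNA RUS. In bulk RNA, fewer cells of a type and less RNA per cell cannot be told apart. Without replicate 1 or replicate 2 of shRNA RUS, 35 and 34 members were lower on day 7.

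On day 5 the set was split. There, 7 members rose, beside 14.8% of the 22581 genes tested, 8 fell, beside 17.9%, and 25 were not called, so that the shares were near those of all genes. The median of the members was −0.115 and that of all genes −0.0608. Groups without overlap were found for 7 higher members, beside 14.1% of all genes, and 10 lower ones, beside 18.7%. The members that rose were Trem2, Cd14, Lyz2, Ly86, Olfml3, Tyrobp and Sall1, and those that fell were Tmem119, P2ry13, Csf1r, Inpp5d, Ptprc, Itgb2, Unc93b1 and Apbb1ip. The sum of the 41 members was 502, 521, 496 and 536 scaled TPM in shRNA CON and 593, 531, 629.6 and 506 in shRNA RUS, and these ranges overlapped. Without the library labelled shRNA RUS replicate 4, 9 members rose and 6 fell. With TPM as deposited, where the median of all genes moved to −0.205, the split was 4 higher and 14 lower, and over all genes 1768 higher and 6037 lower in place of 3349 and 4034. The 8 lower calls also came down to 3 without shRNA CON replicate 2 or 4, or without shRNA RUS replicate 1 or 2, to 4 without shRNA CON replicate 3 and to 5 without shRNA CON replicate 1.

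**Figure D1:**
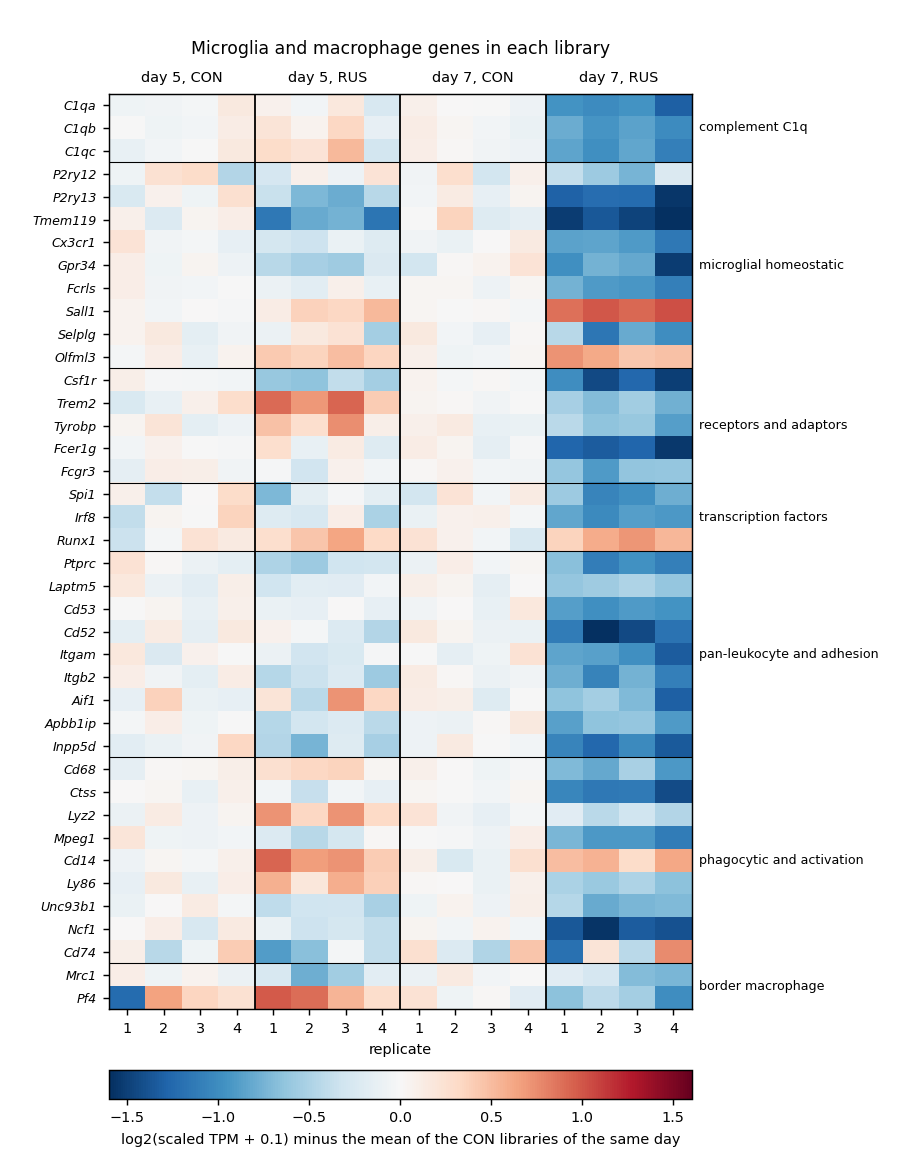
Each row is a member and each column a library; colour gives log2(scaled TPM + 0.1) minus the mean of the shRNA CON libraries of the same day, from −1.6 (blue) to 1.6 (red). On day 7 the shRNA RUS columns are mostly blue in the 35 members called lower and red in Sall1, Olfml3, Runx1 and Cd14, and on day 5 both colours occur. Siglech, near 0, is not drawn.

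**Figure D2:**
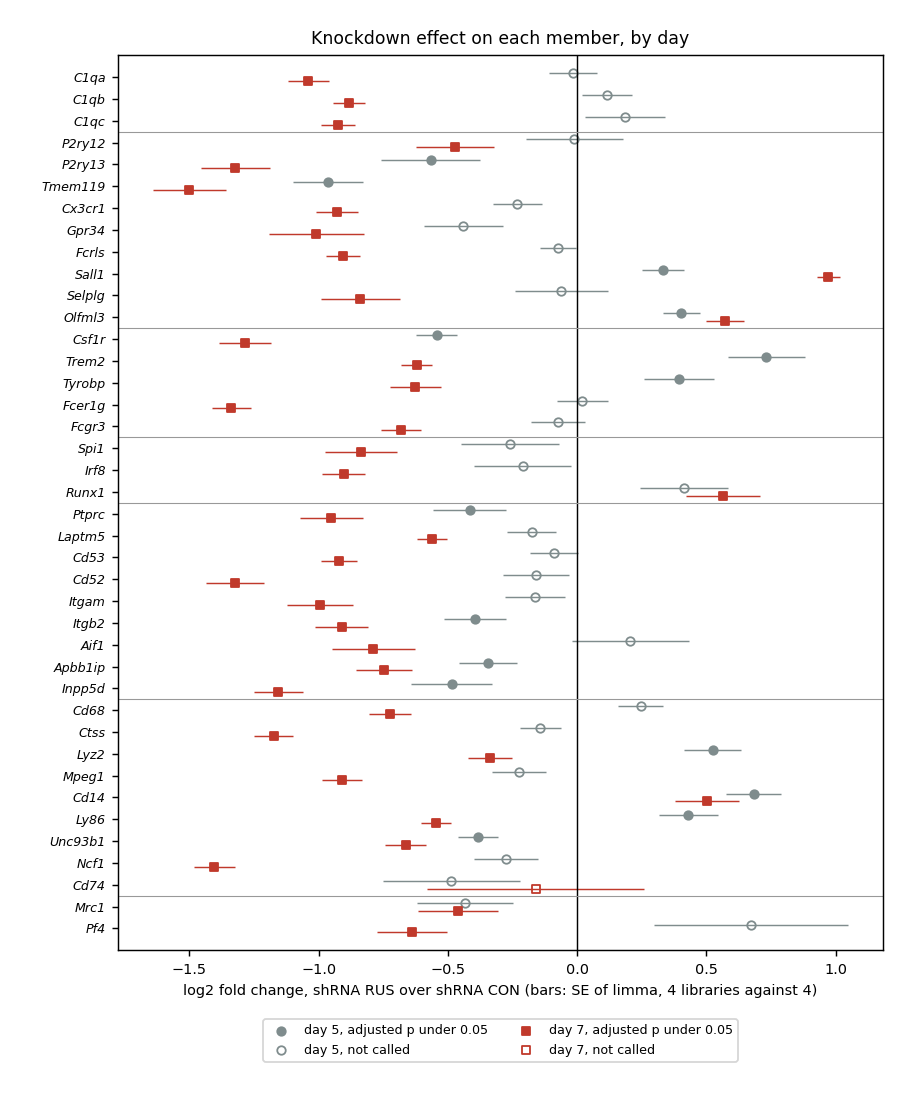
Log2 fold change of shRNA RUS over shRNA CON (horizontal axis) for each of 40 members, grouped by class, with the SE of limma as bars; circles are day 5 and squares day 7, and filled symbols passed an adjusted p of 0.05. The day 7 squares lie left of 0 for every member but Sall1, Olfml3, Runx1 and Cd14, while the circles lie on both sides.

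Genes for signals to myeloid cells were measured in the same libraries. Csf1, the main ligand of Csf1r, lay at 83.5, 82.6, 83.7 and 83.4 scaled TPM in shRNA CON and 43.7, 53.3, 51.7 and 55.4 in shRNA RUS on day 5. Every shRNA RUS library was below the controls, and Csf1 fell by 0.71 ± 0.074 (limma, adjusted p = 0.00014). On day 7 the values were 99.0, 99.8, 103 and 91.2 against 46.2, 53.7, 56.1 and 48.9. The groups were again apart, and Csf1 fell by 0.93 ± 0.068 (limma, adjusted p = 4.4e-06). Il34, the other ligand, named here after its values were seen, stood at 8.86, 11.97, 10.8 and 11.99 scaled TPM on day 5 with shRNA CON and 3.99, 5.31, 5.07 and 5.39 with shRNA RUS. It fell by 1.12 ± 0.13 (limma, adjusted p = 0.00026), and on day 7, at 2.82 ± 0.583 and 2.33 ± 0.431 scaled TPM, it was not called (log2 fold change −0.24 ± 0.18, limma, adjusted p = 0.3). Of the 9 signals listed, 8 were tested, and 2 fell on each day (25% of those tested, beside 17.9% of all genes on day 5 and 25.8% on day 7), while 3 rose on day 5 (37.5%, beside 14.8% of all genes) and 4 on day 7 (50%, beside 23.4%). The genes that rose, named after their values were seen, were Tgfb2 and Cd47 on both days, Cd200 on day 5, and C3 and Cx3cl1 on day 7. Tgfb2, a transforming growth factor beta ligand, rose by 0.51 ± 0.075 (limma, adjusted p = 0.00093) on day 5 and rose by 0.68 ± 0.052 (limma, adjusted p = 5.7e-06) on day 7. Cd47, a ligand that restrains phagocytosis, rose by 0.32 ± 0.063 (limma, adjusted p = 0.00434) on day 5 and rose by 0.64 ± 0.041 (limma, adjusted p = 1.8e-06) on day 7. The fall of day 7 beside that of Csf1 was in Cd200, a neuronal ligand that restrains myeloid cells, which fell by 0.19 ± 0.066 (limma, adjusted p = 0.0355). C3, the complement factor bound by the integrin Itgam with Itgb2, rose by 1.08 ± 0.083 (limma, adjusted p = 5.6e-06) on day 7. Csf2 was under the filter.

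C1q starts the classical complement cascade and tags synapses and dead cells, and its 3 chains are made almost wholly by microglia in the brain. The genes of the chains lie side by side on chromosome 4 of GRCm38 (C1qa at 136895917-136898803, C1qb at 136880129-136886187 and C1qc at 136889804-136893065). None of the 3 was called on day 5 and all fell on day 7. On day 5, C1qa lay at 48.2, 48.4, 49.2 and 56.0 scaled TPM in the shRNA CON libraries and at 52.8, 48.7, 56.5 and 42.1 in the shRNA RUS libraries. The C1qa groups overlapped and the gene did not pass the test, at a log2 fold change of −0.017 ± 0.094 and an adjusted p of 0.91 (limma), with a 95% interval from −0.23 to 0.20. C1qa reached 131, 126, 124 and 118 scaled TPM in shRNA CON and 64.4, 62.0, 64.3 and 50.6 in shRNA RUS on day 7. C1qa was thus lower in all 4 shRNA RUS libraries than in any control library, and it fell by 1.04 ± 0.078 (limma, adjusted p = 4.9e-06). C1qa was thus at 48.6% of control on day 7. Day 5 gave C1qb at 44.1, 42.1, 43.1 and 48.3 scaled TPM with shRNA CON and 51.2, 45.9, 55.9 and 40.4 with shRNA RUS. Overlap of C1qb between the shRNAs went with a log2 fold change of 0.12 ± 0.10 and an adjusted p of 0.4 (limma), with a 95% interval from −0.10 to 0.34. C1qb levels of day 7 were 99.97, 94.5, 89.5 and 85.6 scaled TPM in shRNA CON, against 53.3, 48.1, 51.1 and 45.7 in shRNA RUS. For C1qb no library overlapped between the shRNAs, with shRNA RUS lower throughout, and it fell by 0.88 ± 0.063 (limma, adjusted p = 3.6e-06). With shRNA CON, C1qc measured 37.8, 39.9, 41.05 and 46.0 scaled TPM on day 5, and with shRNA RUS 50.6, 47.7, 58.8 and 33.4. The C1qc ranges of the shRNAs met, and the test gave a log2 fold change of 0.18 ± 0.15 and an adjusted p of 0.4 (limma), with a 95% interval from −0.16 to 0.53. On day 7, C1qc lay at 108, 102, 97.2 and 95.6 scaled TPM in the shRNA CON libraries and at 55.9, 51.2, 56.4 and 47.1 in the shRNA RUS libraries. Each C1qc value of shRNA RUS was under the lowest control value, and the gene fell by 0.93 ± 0.066 (limma, adjusted p = 3.7e-06). On day 7 the log2 fold changes of the chains thus ran from −0.88 to −1.04.

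Of the transcription factors, Spi1 and Irf8 fell on day 7 and Runx1 rose. PU.1, the product of Spi1, is needed for all macrophages. Spi1 reached 3.32, 2.39, 3.15 and 3.85 scaled TPM in shRNA CON and 1.86, 2.80, 3.10 and 2.79 in shRNA RUS on day 5. Separate groups of Spi1 were not seen, and the test gave a log2 fold change of −0.26 ± 0.19 and an adjusted p of 0.33 (limma), with a 95% interval from −0.68 to 0.16. Day 7 gave Spi1 at 4.76, 6.85, 5.71 and 6.42 scaled TPM with shRNA CON and 3.91, 2.77, 2.94 and 3.38 with shRNA RUS. The Spi1 groups were separate, shRNA RUS below shRNA CON, and the gene fell by 0.84 ± 0.14 (limma, adjusted p = 0.00075). Irf8 is the partner of PU.1 in microglia. Irf8 levels of day 5 were 1.54, 2.12, 2.03 and 2.64 scaled TPM in shRNA CON, against 1.76, 1.69, 2.22 and 1.41 in shRNA RUS. The Irf8 groups overlapped and the gene did not pass the test, at a log2 fold change of −0.21 ± 0.19 and an adjusted p of 0.42 (limma), with a 95% interval from −0.63 to 0.21. With shRNA CON, Irf8 measured 4.29, 4.85, 4.90 and 4.52 scaled TPM on day 7, and with shRNA RUS 2.56, 2.23, 2.46 and 2.40. Even the highest Irf8 value of shRNA RUS was below the lowest control, and expression fell by 0.90 ± 0.084 (limma, adjusted p = 1.8e-05). Runx1 acts in blood formation and in the embryonic microglial lineage, and is also known from other cells, among them neurons. On day 5, Runx1 lay at 0.755, 0.955, 1.17 and 1.09 scaled TPM in the shRNA CON libraries and at 1.21, 1.37, 1.57 and 1.25 in the shRNA RUS libraries. All Runx1 values of shRNA RUS were above the controls, but the test was missed, with a log2 fold change of 0.41 ± 0.17 and an adjusted p of 0.0913 (limma), with a 95% interval from 0.033 to 0.79. Runx1 reached 1.45, 1.28, 1.19 and 1.01 scaled TPM in shRNA CON and 1.602, 1.91, 2.05 and 1.82 in shRNA RUS on day 7. Runx1 was thus higher in all 4 shRNA RUS libraries than in any control library, and it rose by 0.56 ± 0.14 (limma, adjusted p = 0.00851). Runx1 was the lowest of the 3 in shRNA CON on day 7, at 1.24 ± 0.185 scaled TPM.

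The receptors and adaptors all fell on day 7, but on day 5 they differed. Csf1r, the survival receptor, is on chromosome 18. Day 5 gave Csf1r at 9.59, 8.90, 8.80 and 8.77 scaled TPM with shRNA CON and 5.89, 5.73, 6.85 and 6.14 with shRNA RUS. Csf1r was thus lower in all 4 shRNA RUS libraries than in any control library, and it fell by 0.54 ± 0.078 (limma, adjusted p = 0.0008). Csf1r levels of day 7 were 22.4, 21.2, 21.8 and 21.1 scaled TPM in shRNA CON, against 10.8, 7.85, 9.01 and 7.57 in shRNA RUS. For Csf1r no library overlapped between the shRNAs, with shRNA RUS lower throughout, and it fell by 1.29 ± 0.10 (limma, adjusted p = 6.8e-06). It was at 68.6% of control on day 5 and 41.02% on day 7. Trem2 senses lipids and signals through the adaptor Tyrobp. With shRNA CON, Trem2 measured 4.18, 4.55, 5.24 and 6.05 scaled TPM on day 5, and with shRNA RUS 9.36, 8.08, 9.52 and 6.58. Each Trem2 value of shRNA RUS exceeded the highest control value, and the gene rose by 0.73 ± 0.15 (limma, adjusted p = 0.00512). On day 7, Trem2 lay at 27.2, 26.5, 25.2 and 26.1 scaled TPM in the shRNA CON libraries and at 18.1, 16.2, 17.8 and 15.4 in the shRNA RUS libraries. Each Trem2 value of shRNA RUS was under the lowest control value, and the gene fell by 0.62 ± 0.06 (limma, adjusted p = 2.2e-05). Trem2 therefore went from 166% of control on day 5 to 65.0% on day 7. Tyrobp reached 27.3, 30.5, 23.8 and 25.04 scaled TPM in shRNA CON and 36.7, 32.1, 44.4 and 28.3 in shRNA RUS on day 5. The Tyrobp groups overlapped, although the gene rose by 0.39 ± 0.13 (limma, adjusted p = 0.0499). Day 7 gave Tyrobp at 75.7, 79.4, 65.8 and 66.2 scaled TPM with shRNA CON and 53.0, 45.7, 47.1 and 38.6 with shRNA RUS. The Tyrobp groups were separate, shRNA RUS below shRNA CON, and the gene fell by 0.63 ± 0.10 (limma, adjusted p = 0.00054). The day 5 call of Tyrobp was lost in 12 of its 16 alternatives.

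Fcer1g, the chain shared by Fc receptors, showed the largest day 7 decrease of this class. Fcer1g levels of day 5 were 22.9, 24.6, 23.3 and 23.3 scaled TPM in shRNA CON, against 28.3, 21.6, 25.7 and 20.4 in shRNA RUS. Overlap of Fcer1g between the shRNAs went with a log2 fold change of 0.02 ± 0.10 and an adjusted p of 0.9 (limma), with a 95% interval from −0.20 to 0.24. With shRNA CON, Fcer1g measured 63.8, 60.5, 53.1 and 57.7 scaled TPM on day 7, and with shRNA RUS 24.3, 23.3, 24.2 and 20.1. Even the highest Fcer1g value of shRNA RUS was below the lowest control, and expression fell by 1.34 ± 0.076 (limma, adjusted p = 9.7e-07). Fcgr3 is a low-affinity receptor for IgG. On day 5, Fcgr3 lay at 5.77, 6.92, 6.87 and 6.14 scaled TPM in the shRNA CON libraries and at 6.31, 5.14, 6.74 and 6.20 in the shRNA RUS libraries. The Fcgr3 ranges of the shRNAs met, and the test gave a log2 fold change of −0.075 ± 0.10 and an adjusted p of 0.62 (limma), with a 95% interval from −0.31 to 0.16. Fcgr3 reached 11.6, 11.97, 11.1 and 11.0 scaled TPM in shRNA CON and 7.37, 6.03, 7.31 and 7.38 in shRNA RUS on day 7. Fcgr3 was thus lower in all 4 shRNA RUS libraries than in any control library, and it fell by 0.68 ± 0.077 (limma, adjusted p = 6.2e-05). The difference between the log2 fold changes of Fcer1g and Fcgr3 was not tested.

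Of the 10 homeostatic genes, 9 were tested: on day 7, 7 fell and 2, Sall1 and Olfml3, rose. Tmem119, a membrane protein of mature microglia, had the largest decrease of the set in the main fit. Over the alternatives of day 7 its log2 fold change ran from −1.568 to −1.088, beside −1.386 to −1.273 for Fcer1g, so this rank can change. Day 5 gave Tmem119 at 4.13, 3.33, 4.03 and 4.20 scaled TPM with shRNA CON and 1.72, 2.19, 2.27 and 1.68 with shRNA RUS. For Tmem119 no library overlapped between the shRNAs, with shRNA RUS lower throughout, and it fell by 0.97 ± 0.14 (limma, adjusted p = 0.00072). Tmem119 levels of day 7 were 3.64, 4.72, 3.17 and 3.32 scaled TPM in shRNA CON, against 1.21, 1.37, 1.24 and 1.09 in shRNA RUS. Each Tmem119 value of shRNA RUS was under the lowest control value, and the gene fell by 1.5 ± 0.14 (limma, adjusted p = 2e-05). It was at 51.2% of control on day 5 and 35.4% on day 7. P2ry12 and P2ry13 are nucleotide receptors whose genes lie inside Med12l, on the opposite strand, so that reads of Med12l could add to them if counting ignored strand. With shRNA CON, P2ry12 measured 2.34, 2.91, 3.04 and 1.74 scaled TPM on day 5, and with shRNA RUS 2.02, 2.59, 2.30 and 2.87. Separate groups of P2ry12 were not seen, and the test gave a log2 fold change of −0.011 ± 0.19 and an adjusted p of 0.97 (limma), with a 95% interval from −0.43 to 0.41. On day 7, P2ry12 lay at 3.16, 3.96, 2.66 and 3.49 scaled TPM in the shRNA CON libraries and at 2.51, 2.15, 1.92 and 2.78 in the shRNA RUS libraries. Some P2ry12 values of the shRNAs overlapped, and the gene fell by 0.47 ± 0.15 (limma, adjusted p = 0.0265). P2ry13 reached 0.618, 0.796, 0.711 and 0.917 scaled TPM in shRNA CON and 0.568, 0.421, 0.393 and 0.528 in shRNA RUS on day 5. The P2ry13 groups were separate, shRNA RUS below shRNA CON, and the gene fell by 0.57 ± 0.19 (limma, adjusted p = 0.0484). Day 7 gave P2ry13 at 1.79, 2.04, 1.68 and 1.90 scaled TPM with shRNA CON and 0.694, 0.733, 0.727 and 0.564 with shRNA RUS. Even the highest P2ry13 value of shRNA RUS was below the lowest control, and expression fell by 1.32 ± 0.13 (limma, adjusted p = 3.3e-05). The P2ry12 call on day 7 was lost in 5 of 16 alternatives, and the P2ry13 call on day 5 in 10 of 15.

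Cx3cr1 is the receptor for the neuronal chemokine Cx3cl1. Cx3cr1 levels of day 5 were 8.28, 6.80, 6.94 and 6.46 scaled TPM in shRNA CON, against 5.80, 5.61, 6.58 and 6.11 in shRNA RUS. The Cx3cr1 groups overlapped and the gene did not pass the test, at a log2 fold change of −0.23 ± 0.10 and an adjusted p of 0.0936 (limma), with a 95% interval from −0.45 to −0.017. With shRNA CON, Cx3cr1 measured 22.2, 21.4, 23.2 and 25.4 scaled TPM on day 7, and with shRNA RUS 12.6, 12.7, 12.2 and 10.3. Cx3cr1 was thus lower in all 4 shRNA RUS libraries than in any control library, and it fell by 0.93 ± 0.08 (limma, adjusted p = 1.1e-05). Its annotated span overlaps 9 other genes, 6 of them on the opposite strand. On day 5, Fcrls lay at 21.6, 19.4, 19.5 and 20.1 scaled TPM in the shRNA CON libraries and at 18.8, 17.9, 21.3 and 18.5 in the shRNA RUS libraries. Overlap of Fcrls between the shRNAs went with a log2 fold change of −0.074 ± 0.07 and an adjusted p of 0.45 (limma), with a 95% interval from −0.23 to 0.084. Fcrls reached 52.7, 52.7, 48.6 and 52.6 scaled TPM in shRNA CON and 30.6, 27.5, 27.0 and 24.2 in shRNA RUS on day 7. For Fcrls no library overlapped between the shRNAs, with shRNA RUS lower throughout, and it fell by 0.91 ± 0.066 (limma, adjusted p = 4.2e-06). Fcrls is an Fc receptor-like protein of mouse microglia, and it was the most abundant homeostatic gene of shRNA CON on day 7 by scaled TPM. Selplg encodes the selectin ligand PSGL-1. Day 5 gave Selplg at 2.04, 2.20, 1.75 and 1.88 scaled TPM with shRNA CON and 1.82, 2.20, 2.31 and 1.32 with shRNA RUS. The Selplg ranges of the shRNAs met, and the test gave a log2 fold change of −0.061 ± 0.18 and an adjusted p of 0.83 (limma), with a 95% interval from −0.46 to 0.34. Selplg levels of day 7 were 3.47, 2.99, 2.82 and 3.14 scaled TPM in shRNA CON, against 2.24, 1.34, 1.73 and 1.51 in shRNA RUS. Each Selplg value of shRNA RUS was under the lowest control value, and the gene fell by 0.84 ± 0.15 (limma, adjusted p = 0.00140). Gpr34, a lysophosphatidylserine receptor gene within Cask on the opposite strand, ranged from 0.578 to 0.981 scaled TPM on day 5 and from 1.08 to 3.83 on day 7, where it fell by 1.01 ± 0.18 (limma, adjusted p = 0.00138).

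Sall1 and Olfml3 went the other way. Sall1 is a zinc finger factor of microglial identity that is also strongly expressed by neural progenitors. With shRNA CON, Sall1 measured 29.4, 27.5, 28.5 and 28.0 scaled TPM on day 5, and with shRNA RUS 30.7, 36.6, 35.6 and 40.6. The Sall1 groups were separate, shRNA RUS above shRNA CON, and the gene rose by 0.33 ± 0.082 (limma, adjusted p = 0.0125). On day 7, Sall1 lay at 23.1, 22.6, 23.0 and 22.2 scaled TPM in the shRNA CON libraries and at 42.0, 45.2, 43.0 and 46.8 in the shRNA RUS libraries. Sall1 was thus higher in all 4 shRNA RUS libraries than in any control library, and it rose by 0.97 ± 0.044 (limma, adjusted p = 2.9e-07). Olfml3, a secreted protein, is known from other cells as well. Olfml3 reached 11.0, 12.1, 10.3 and 11.7 scaled TPM in shRNA CON and 15.1, 14.4, 15.9 and 14.3 in shRNA RUS on day 5. Each Olfml3 value of shRNA RUS exceeded the highest control value, and the gene rose by 0.40 ± 0.071 (limma, adjusted p = 0.00240). Day 7 gave Olfml3 at 7.89, 7.15, 7.28 and 7.62 scaled TPM with shRNA CON and 12.4, 11.47, 10.1 and 10.4 with shRNA RUS. The Olfml3 groups were separate, shRNA RUS above shRNA CON, and the gene rose by 0.57 ± 0.073 (limma, adjusted p = 0.00015). The homeostatic class as a whole summed to 102 ± 3.497 scaled TPM on day 7 against 120.3 ± 3.22 in shRNA CON, or 85.0%. Without Sall1 and Olfml3 the other 8 genes summed to 46.9 ± 4.09 against 90.0 ± 3.42, or 52.1%.

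All 9 pan-leukocyte and adhesion genes fell on day 7, and 4 of them, Ptprc, Itgb2, Apbb1ip and Inpp5d, had fallen on day 5. Ptprc encodes CD45, the phosphatase of all leukocytes. Ptprc levels of day 5 were 1.78, 1.53, 1.40 and 1.34 scaled TPM in shRNA CON, against 1.04, 0.970, 1.19 and 1.21 in shRNA RUS. The Ptprc groups were separate, shRNA RUS below shRNA CON, and the gene fell by 0.42 ± 0.14 (limma, adjusted p = 0.0487). With shRNA CON, Ptprc measured 2.63, 3.05, 2.72 and 2.88 scaled TPM on day 7, and with shRNA RUS 1.73, 1.26, 1.39 and 1.26. Even the highest Ptprc value of shRNA RUS was below the lowest control, and expression fell by 0.95 ± 0.12 (limma, adjusted p = 0.00016). Laptm5 is a lysosomal membrane protein of blood cells. On day 5, Laptm5 lay at 14.3, 11.9, 11.3 and 13.7 scaled TPM in the shRNA CON libraries and at 10.2, 11.3, 11.2 and 12.4 in the shRNA RUS libraries. Separate groups of Laptm5 were not seen, and the test gave a log2 fold change of −0.18 ± 0.094 and an adjusted p of 0.18 (limma), with a 95% interval from −0.39 to 0.036. Laptm5 reached 36.6, 35.6, 31.2 and 34.4 scaled TPM in shRNA CON and 22.3, 23.2, 24.4 and 22.3 in shRNA RUS on day 7. Laptm5 was thus lower in all 4 shRNA RUS libraries than in any control library, and it fell by 0.56 ± 0.059 (limma, adjusted p = 3.9e-05). Cd53 is a leukocyte tetraspanin. Day 5 gave Cd53 at 3.26, 3.36, 2.997 and 3.47 scaled TPM with shRNA CON and 3.03, 2.97, 3.30 and 2.96 with shRNA RUS. The Cd53 groups overlapped and the gene did not pass the test, at a log2 fold change of −0.089 ± 0.092 and an adjusted p of 0.5 (limma), with a 95% interval from −0.30 to 0.12. Cd53 levels of day 7 were 10.5, 11.0, 10.1 and 12.3 scaled TPM in shRNA CON, against 5.90, 5.51, 5.82 and 5.59 in shRNA RUS. For Cd53 no library overlapped between the shRNAs, with shRNA RUS lower throughout, and it fell by 0.92 ± 0.069 (limma, adjusted p = 5e-06). The small glycoprotein Cd52 had the largest decrease of this class. With shRNA CON, Cd52 measured 15.9, 19.5, 16.1 and 19.8 scaled TPM on day 5, and with shRNA RUS 18.7, 17.3, 15.2 and 12.8. Overlap of Cd52 between the shRNAs went with a log2 fold change of −0.16 ± 0.13 and an adjusted p of 0.38 (limma), with a 95% interval from −0.45 to 0.13. On day 7, Cd52 lay at 34.7, 32.2, 29.0 and 28.8 scaled TPM in the shRNA CON libraries and at 14.3, 10.04, 11.4 and 13.7 in the shRNA RUS libraries. Each Cd52 value of shRNA RUS was under the lowest control value, and the gene fell by 1.32 ± 0.11 (limma, adjusted p = 1.1e-05).

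Itgam and Itgb2 together form the complement receptor CR3. Itgam reached 3.87, 2.89, 3.59 and 3.40 scaled TPM in shRNA CON and 3.18, 2.75, 2.88 and 3.37 in shRNA RUS on day 5. The Itgam ranges of the shRNAs met, and the test gave a log2 fold change of −0.16 ± 0.12 and an adjusted p of 0.32 (limma), with a 95% interval from −0.43 to 0.10. Day 7 gave Itgam at 6.43, 5.85, 6.19 and 7.61 scaled TPM with shRNA CON and 3.58, 3.52, 3.23 and 2.51 with shRNA RUS. The Itgam groups were separate, shRNA RUS below shRNA CON, and the gene fell by 0.99 ± 0.13 (limma, adjusted p = 0.00014). Itgb2 levels of day 5 were 3.21, 2.85, 2.66 and 3.24 scaled TPM in shRNA CON, against 2.15, 2.33, 2.54 and 1.96 in shRNA RUS. Even the highest Itgb2 value of shRNA RUS was below the lowest control, and expression fell by 0.40 ± 0.12 (limma, adjusted p = 0.0304). With shRNA CON, Itgb2 measured 7.91, 7.28, 6.72 and 6.89 scaled TPM on day 7, and with shRNA RUS 4.14, 3.38, 4.22 and 3.31. Itgb2 was thus lower in all 4 shRNA RUS libraries than in any control library, and it fell by 0.91 ± 0.10 (limma, adjusted p = 6.1e-05). The log2 fold changes of the partners on day 7 were −0.99 and −0.91. Aif1 encodes IBA1, the actin-binding protein by which microglia are stained. On day 5, Aif1 lay at 5.59, 7.97, 5.69 and 5.60 scaled TPM in the shRNA CON libraries and at 7.08, 4.51, 10.2 and 7.76 in the shRNA RUS libraries. Separate groups of Aif1 were not seen, and the test gave a log2 fold change of 0.21 ± 0.23 and an adjusted p of 0.52 (limma), with a 95% interval from −0.30 to 0.71. Aif1 reached 10.4, 10.3, 8.36 and 9.54 scaled TPM in shRNA CON and 6.12, 6.58, 5.84 and 3.83 in shRNA RUS on day 7. For Aif1 no library overlapped between the shRNAs, with shRNA RUS lower throughout, and it fell by 0.79 ± 0.16 (limma, adjusted p = 0.00257). On day 5, replicate 3 of shRNA RUS was the highest of the 8 libraries for Aif1, and it was the highest of its group for 25 of 40 members, beside 20.6% of all genes.

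Apbb1ip is an adaptor that links Ras-family signals to integrins. Day 5 gave Apbb1ip at 2.12, 2.33, 2.07 and 2.17 scaled TPM with shRNA CON and 1.56, 1.75, 1.85 and 1.58 with shRNA RUS. Each Apbb1ip value of shRNA RUS was under the lowest control value, and the gene fell by 0.35 ± 0.11 (limma, adjusted p = 0.0394). Apbb1ip levels of day 7 were 3.11, 3.09, 3.36 and 3.68 scaled TPM in shRNA CON, against 1.77, 2.07, 2.13 and 1.72 in shRNA RUS. The Apbb1ip groups were separate, shRNA RUS below shRNA CON, and the gene fell by 0.75 ± 0.11 (limma, adjusted p = 0.00033). Inpp5d encodes the phosphatase SHIP1, which restrains signals of Trem2 and Fc receptors. With shRNA CON, Inpp5d measured 2.32, 2.44, 2.52 and 3.33 scaled TPM on day 5, and with shRNA RUS 1.87, 1.53, 2.26 and 1.78. Even the highest Inpp5d value of shRNA RUS was below the lowest control, and expression fell by 0.49 ± 0.16 (limma, adjusted p = 0.0398). On day 7, Inpp5d lay at 7.59, 8.90, 8.01 and 7.81 scaled TPM in the shRNA CON libraries and at 3.82, 3.33, 3.93 and 3.12 in the shRNA RUS libraries. Inpp5d was thus lower in all 4 shRNA RUS libraries than in any control library, and it fell by 1.16 ± 0.094 (limma, adjusted p = 7.8e-06). The day 5 calls of Ptprc, Itgb2, Apbb1ip and Inpp5d were lost in 11, 9, 10 and 9 of 16 alternatives.

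In the phagocytic and activation class 7 of 9 genes fell on day 7, Cd14 rose and Cd74 was not called, while on day 5 Lyz2, Cd14 and Ly86 rose and Unc93b1 fell. Lyz2, the lysozyme of macrophages, was the most abundant member in every group. Lyz2 reached 60.8, 71.1, 61.5 and 67.3 scaled TPM in shRNA CON and 107, 81.6, 107 and 81.1 in shRNA RUS on day 5. Lyz2 was thus higher in all 4 shRNA RUS libraries than in any control library, and it rose by 0.52 ± 0.11 (limma, adjusted p = 0.00567). Day 7 gave Lyz2 at 169.8, 141, 133 and 142 scaled TPM with shRNA CON and 129, 108, 117 and 105 with shRNA RUS. For Lyz2 no library overlapped between the shRNAs, with shRNA RUS lower throughout, and it fell by 0.34 ± 0.085 (limma, adjusted p = 0.00860). Lyz1, its near-identical copy, was listed at most at 0.142 scaled TPM. Cd68 is a lysosomal glycoprotein. Cd68 levels of day 5 were 17.3, 19.5, 19.6 and 20.5 scaled TPM in shRNA CON, against 22.9, 24.2, 24.6 and 19.6 in shRNA RUS. The Cd68 groups overlapped and the gene did not pass the test, at a log2 fold change of 0.25 ± 0.088 and an adjusted p of 0.0593 (limma), with a 95% interval from 0.048 to 0.44. With shRNA CON, Cd68 measured 53.7, 51.1, 48.4 and 50.0 scaled TPM on day 7, and with shRNA RUS 31.1, 28.9, 35.4 and 26.8. Each Cd68 value of shRNA RUS was under the lowest control value, and the gene fell by 0.72 ± 0.081 (limma, adjusted p = 5.9e-05). Ctss is a lysosomal protease used in antigen presentation. On day 5, Ctss lay at 34.4, 34.9, 31.5 and 36.3 scaled TPM in the shRNA CON libraries and at 33.2, 26.6, 33.2 and 31.4 in the shRNA RUS libraries. Overlap of Ctss between the shRNAs went with a log2 fold change of −0.14 ± 0.081 and an adjusted p of 0.21 (limma), with a 95% interval from −0.32 to 0.041. Ctss reached 68.8, 67.1, 65.6 and 69.0 scaled TPM in shRNA CON and 32.8, 30.6, 30.7 and 24.9 in shRNA RUS on day 7. The Ctss groups were separate, shRNA RUS below shRNA CON, and the gene fell by 1.17 ± 0.076 (limma, adjusted p = 2e-06). Lyz2 had the smallest decrease among the 35 genes that fell, to 79.2% of control, and Ctss was at 44.3%.

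Cd14 is the co-receptor for bacterial lipopolysaccharide. Day 5 gave Cd14 at 7.12, 7.66, 7.34 and 7.94 scaled TPM with shRNA CON and 14.4, 12.05, 12.5 and 9.97 with shRNA RUS. Each Cd14 value of shRNA RUS exceeded the highest control value, and the gene rose by 0.68 ± 0.11 (limma, adjusted p = 0.00125). Cd14 levels of day 7 were 3.43, 2.68, 2.95 and 3.85 scaled TPM in shRNA CON, against 4.55, 4.75, 3.93 and 4.96 in shRNA RUS. The Cd14 groups were separate, shRNA RUS above shRNA CON, and the gene rose by 0.50 ± 0.12 (limma, adjusted p = 0.00740). It was the 1 member of the class that was higher on both days. Ly86, also called MD-1, associates with a Toll-like receptor homologue. With shRNA CON, Ly86 measured 7.16, 8.80, 7.22 and 8.46 scaled TPM on day 5, and with shRNA RUS 11.8, 8.92, 11.8 and 10.3. Ly86 was thus higher in all 4 shRNA RUS libraries than in any control library, and it rose by 0.43 ± 0.11 (limma, adjusted p = 0.0170). On day 7, Ly86 lay at 22.5, 22.2, 20.5 and 23.5 scaled TPM in the shRNA CON libraries and at 15.6, 14.6, 15.68 and 13.98 in the shRNA RUS libraries. Even the highest Ly86 value of shRNA RUS was below the lowest control, and expression fell by 0.55 ± 0.058 (limma, adjusted p = 4e-05). The day 5 call of Ly86 was lost in 3 of 16 alternatives. Mpeg1 encodes a pore-forming protein of phagocytes. Mpeg1 reached 18.8, 15.6, 15.5 and 15.9 scaled TPM in shRNA CON and 14.1, 12.1, 13.5 and 16.6 in shRNA RUS on day 5. The Mpeg1 ranges of the shRNAs met, and the test gave a log2 fold change of −0.23 ± 0.10 and an adjusted p of 0.13 (limma), with a 95% interval from −0.46 to 0.0076. Day 7 gave Mpeg1 at 42.6, 42.5, 40.5 and 46.1 scaled TPM with shRNA CON and 25.8, 22.5, 22.6 and 19.6 with shRNA RUS. Mpeg1 was thus lower in all 4 shRNA RUS libraries than in any control library, and it fell by 0.91 ± 0.077 (limma, adjusted p = 1e-05). Ncf1 is a subunit of the phagocyte NADPH oxidase. Ncf1 levels of day 5 were 2.77, 2.99, 2.30 and 3.08 scaled TPM in shRNA CON, against 2.56, 2.17, 2.27 and 2.08 in shRNA RUS. Separate groups of Ncf1 were not seen, and the test gave a log2 fold change of −0.28 ± 0.12 and an adjusted p of 0.12 (limma), with a 95% interval from −0.55 to 0.003. With shRNA CON, Ncf1 measured 7.24, 6.81, 7.31 and 6.80 scaled TPM on day 7, and with shRNA RUS 2.69, 2.30, 2.73 and 2.62. For Ncf1 no library overlapped between the shRNAs, with shRNA RUS lower throughout, and it fell by 1.40 ± 0.079 (limma, adjusted p = 9.2e-07).

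Cd74, the invariant chain of MHC class II, was at or under 0.891 scaled TPM in every library. On day 5, Cd74 lay at 0.569, 0.361, 0.494 and 0.730 scaled TPM in the shRNA CON libraries and at 0.237, 0.292, 0.509 and 0.377 in the shRNA RUS libraries. The Cd74 groups overlapped and the gene did not pass the test, at a log2 fold change of −0.49 ± 0.26 and an adjusted p of 0.19 (limma), with a 95% interval from −1.08 to 0.11. Cd74 reached 0.606, 0.404, 0.321 and 0.702 scaled TPM in shRNA CON and 0.157, 0.577, 0.336 and 0.891 in shRNA RUS on day 7. Overlap of Cd74 between the shRNAs went with a log2 fold change of −0.16 ± 0.42 and an adjusted p of 0.79 (limma), with a 95% interval from −1.11 to 0.79. Unc93b1, which carries nucleic acid-sensing Toll-like receptors and is known from other cells too, ranged from 10.4 to 16.4 scaled TPM on day 5, where it fell by 0.38 ± 0.078 (limma, adjusted p = 0.00497), and from 7.57 to 14.1 on day 7, where it fell by 0.66 ± 0.079 (limma, adjusted p = 9.6e-05).

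Both border-macrophage genes fell on day 7. Mrc1, the mannose receptor CD206, was among the lowest members. Day 5 gave Mrc1 at 0.863, 0.753, 0.834 and 0.740 scaled TPM with shRNA CON and 0.651, 0.421, 0.509 and 0.701 with shRNA RUS. All Mrc1 values of shRNA RUS were below the controls, but the test was missed, with a log2 fold change of −0.43 ± 0.19 and an adjusted p of 0.11 (limma), with a 95% interval from −0.85 to −0.014. Mrc1 levels of day 7 were 1.68, 2.01, 1.75 and 1.80 scaled TPM in shRNA CON, against 1.57, 1.48, 1.08 and 1.05 in shRNA RUS. Each Mrc1 value of shRNA RUS was under the lowest control value, and the gene fell by 0.46 ± 0.15 (limma, adjusted p = 0.0333). The Mrc1 call on day 7 was lost in 8 of 16 alternatives. Pf4 is a chemokine of platelets and border macrophages. With shRNA CON, Pf4 measured 0.481, 2.04, 1.64 and 1.51 scaled TPM on day 5, and with shRNA RUS 2.59, 2.44, 1.89 and 1.56. The Pf4 ranges of the shRNAs met, and the test gave a log2 fold change of 0.67 ± 0.38 and an adjusted p of 0.2 (limma), with a 95% interval from −0.17 to 1.52. On day 7, Pf4 lay at 8.02, 6.49, 6.95 and 6.04 scaled TPM in the shRNA CON libraries and at 4.31, 5.07, 4.66 and 3.38 in the shRNA RUS libraries. The Pf4 groups were separate, shRNA RUS below shRNA CON, and the gene fell by 0.64 ± 0.14 (limma, adjusted p = 0.00322). The day 5 spread of Pf4 in shRNA CON went from 0.481 in replicate 1 to 2.04 in replicate 2. Of the other border genes, Cd163 and Lyve1 were at or near 0, at most 0.0412 and 0.0454 scaled TPM, so these defining markers of border macrophages were absent or nearly so in the tables. Of the 8 other border genes 6 were tested on day 7, where 3 fell (50%, beside 25.8% of all genes) and none rose (beside 23.4%). Those that fell were Stab1, Ms4a7 and F13a1, with log2 fold changes of −0.78 ± 0.067, −0.81 ± 0.17 and −2.96 ± 0.15 (limma, adjusted p = 1.1e-05, 0.00307 and 4.5e-07). Cbr2 was among those not called. On day 5, 1 of 5 tested fell (20%, beside 17.9% of all genes) and none rose (beside 14.8%).

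**Figure D3:**
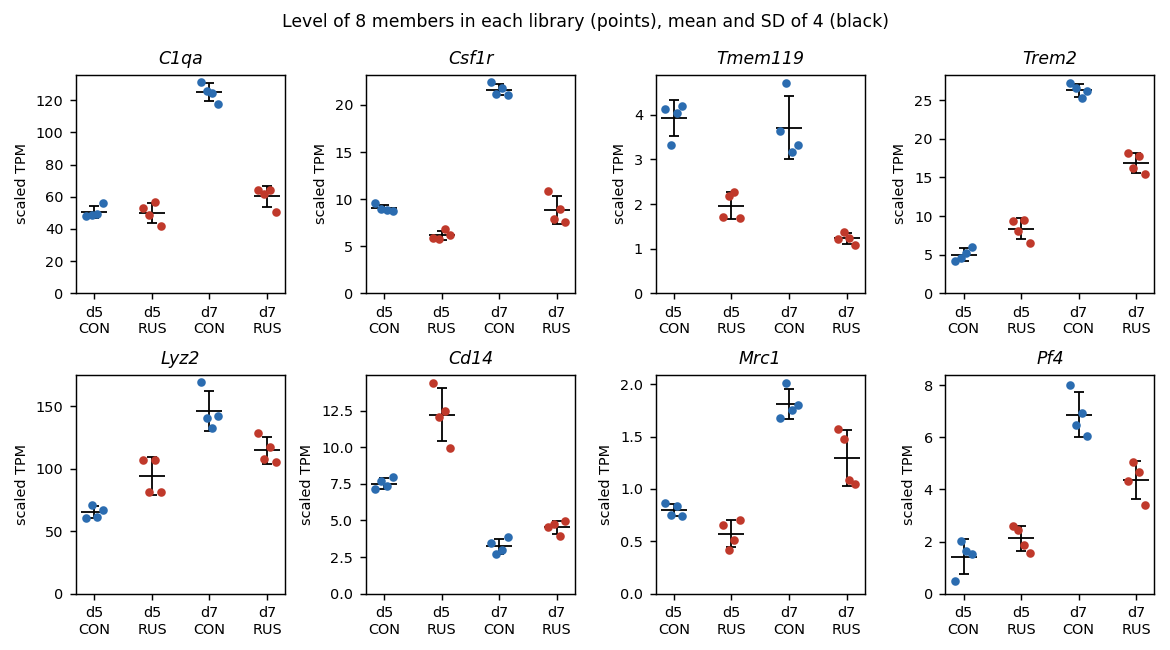
Scaled TPM (vertical axes, from 0) of 8 members in each library, blue for shRNA CON and red for shRNA RUS on day 5 (d5) and day 7 (d7), with the mean and SD of 4 libraries in black. C1qa, Csf1r, Trem2, Lyz2, Mrc1 and Pf4 are highest in shRNA CON on day 7, Tmem119 is low in shRNA RUS on both days, and Cd14 is highest in shRNA RUS on day 5.

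Between day 5 and day 7 most members rose in control cultures and fewer did with shRNA RUS. The switch to differentiation medium falls at day 5, so time in culture and the change of medium cannot be told apart in these comparisons. From day 5 to day 7, 32 of 40 members rose in shRNA CON, beside 26.9% of 23789 genes tested, and Cd14, Olfml3 and Sall1 fell, beside 21.6%. Without overlap between the days were 32 members that were higher on day 7, beside 26.1% of all genes, and 3 that were lower, beside 20.8%; in shRNA RUS these were 18, beside 30%, and 4, beside 22.5%. The median was 1.15 for the members and 0.0673 for all genes. Trem2 and Pf4 rose most, by 2.38 ± 0.12 and 2.34 ± 0.30 on the log2 scale (limma, adjusted p = 2.3e-10 and 1e-05). Of the classes, all 3 C1q genes, all 5 receptors and adaptors, all 9 pan-leukocyte genes and both border genes rose in shRNA CON. In shRNA RUS 22 members rose, beside 35% of all genes, and 5 fell, beside 25.8%, with a median of 0.305 against 0.131 for all genes. Mrc1 rose with both shRNAs, by 1.09 ± 0.16 in shRNA CON and 1.06 ± 0.16 in shRNA RUS (limma, adjusted p = 4.5e-05 and 3.6e-05). Cd52 rose by 0.81 ± 0.13 (limma, adjusted p = 8.1e-05) in shRNA CON, and in shRNA RUS it fell by 0.37 ± 0.13 (limma, adjusted p = 0.0211), a call lost in 5 of 24 alternatives, with −0.047 in TPM as deposited and the others without shRNA RUS replicate 1 or 2 of day 5 or replicate 2 or 3 of day 7. With TPM as deposited, 1 member fell with time in shRNA RUS in place of 5, the median of all genes being 0.415, and over all genes 11801 rose and 3545 fell in place of 8317 and 6135. In shRNA CON the same change gave 8573 and 3434 genes in place of 6394 and 5133.

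The difference between the days was itself tested, as the interaction of shRNA and day. The knockdown effect was lower on day 7 than on day 5 in 30 of 40 members, beside 14.6% of the 23789 genes, and higher in Sall1 alone, beside 15.2%. The median difference was −0.73 among the members and 0.0376 among all genes. Fcer1g and Trem2 differed most, by −1.37 ± 0.13 and −1.37 ± 0.17 (limma, adjusted p = 5.4e-06 and 3.6e-05). Tmem119, which fell on both days, differed by −0.54 ± 0.19 (limma, adjusted p = 0.0484), a call lost in 15 of 24 alternatives. The interaction call was also lost in 12 alternatives for Apbb1ip, 10 for Ptprc, 5 for Pf4 and 1 each for Itgb2 and Laptm5. Not called were P2ry12, Gpr34, Olfml3, Spi1, Runx1, Cd14, Unc93b1, Cd74 and Mrc1, and for Mrc1 the 95% interval went from −0.52 to 0.46. The split of calls over all genes depended on the scaling: with TPM as deposited, 5700 genes were higher and 2053 lower in place of 3626 and 3464, and 2 members were higher.

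**Figure D4:**
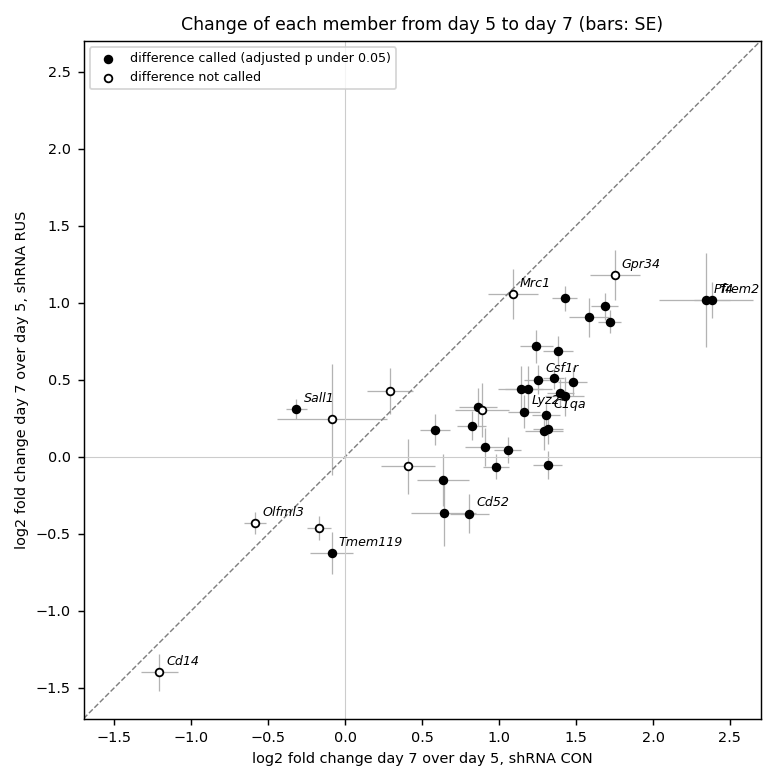
Log2 fold change from day 5 to day 7 in shRNA CON (horizontal) and shRNA RUS (vertical) for 40 members, with SE bars; filled points had a called difference between the shRNAs and the dashed line marks equal change. Most points lie below the line, Sall1 lies above it, and Mrc1 lies near it.

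Markers that follow only the share of 1 cell type keep their ratio to each other. The log2 ratio of 8 members to Csf1r was therefore compared between the shRNAs on each day, with an exact two-sided permutation test over the 70 arrangements of 4 against 4 libraries. The smallest p such a test allows is 0.0286, which is 0.0381 after adjustment over the 16 ratios. On day 5, the ratio of Trem2 to Csf1r was −1.18, −0.95, −0.74 and −0.53 in shRNA CON and 0.66, 0.49, 0.47 and 0.10 in shRNA RUS. The groups did not overlap, and the mean ratio was 1.28 higher in shRNA RUS on the log2 scale (exact p = 0.0286). On day 7 it was 0.28, 0.32, 0.21 and 0.31 against 0.74, 1.04, 0.98 and 1.02, again without overlap, and 0.66 higher. Lyz2 showed the same order, with 2.65, 2.98, 2.79 and 2.93 against 4.16, 3.81, 3.95 and 3.70 on day 5 and 2.92, 2.72, 2.60 and 2.75 against 3.56, 3.76, 3.69 and 3.78 on day 7. Its ratio was 1.07 and 0.95 higher in shRNA RUS, with the smallest exact p on both days. The ratios to Csf1r therefore differed between the shRNAs in these libraries.

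In all, 5 of 8 ratios were free of overlap on day 5 (C1qa, Cx3cr1, Trem2, Cd68 and Lyz2) and 7 of 8 on day 7 (all but Cx3cr1), and each of these was higher in shRNA RUS. On day 7 the difference was 0.81 for P2ry12, 0.83 for Mrc1, 0.56 for Cd68, 0.34 for Ptprc and 0.24 for C1qa. The separation of C1qa was narrow, the highest control and the lowest shRNA RUS library both rounding to 2.56. On day 5, P2ry12 (difference 0.53, exact p = 0.0571), Ptprc (0.13, exact p = 0.17) and Mrc1 (0.11, exact p = 0.49) overlapped. All ratios share Csf1r, so they are not independent. With Tyrobp in its place, 3 of 8 ratios were free of overlap on each day: C1qa, Cx3cr1 and Ptprc, all lower, on day 5, and C1qa and Ptprc, lower, and Lyz2, higher, on day 7. The Trem2 to Tyrobp ratio differed by 0.34 on day 5 and 0.0061 on day 7, with overlap on both.

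**Figure D5:**
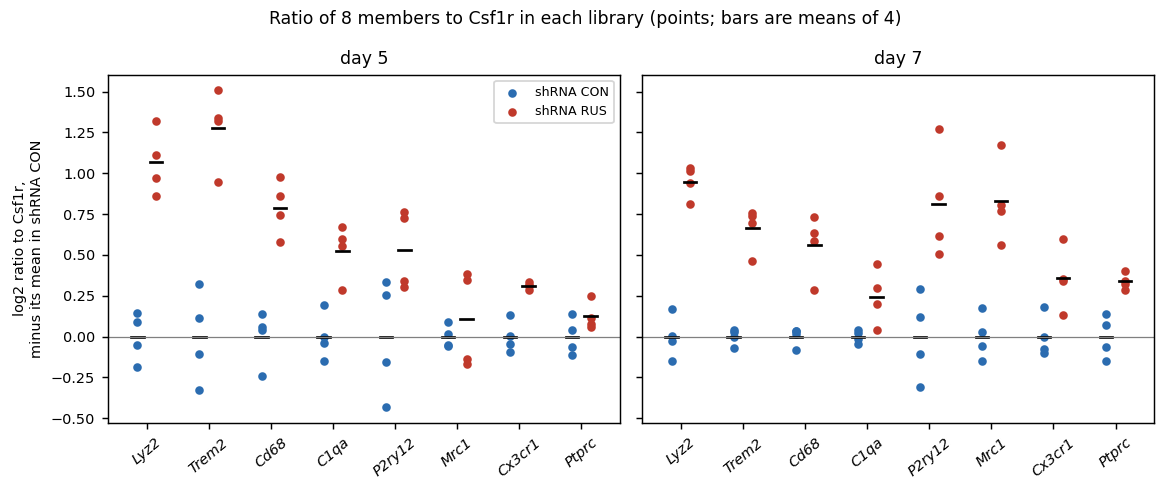
Log2 ratio of 8 members to Csf1r in each library, minus the mean of shRNA CON of the same day (vertical axis), for day 5 and day 7; blue points are shRNA CON, red points shRNA RUS and black bars means of 4. Lyz2 and Trem2 stand highest in shRNA RUS on day 5, and on day 7 the red points are above the blue ones for every gene but Cx3cr1, where they overlap.

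On day 7 the class sums in shRNA RUS were 51.1% of shRNA CON for C1q, 53.6% for receptors and adaptors, 53.0% for pan-leukocyte genes, 64.6% for phagocytic genes, 65.1% for border genes and 63.6% for transcription factors. On day 5 they were 107%, 113%, 90.2%, 118%, 122% and 92.1%. The homeostatic class was at 108% on day 5, and at 87.3% without Sall1 and Olfml3, so that its direction turned. The day 5 border sum held Pf4 at 159% of control, with shRNA CON replicate 1 far below the other controls, and Mrc1 at 74.1%, and neither gene was called. The phagocytic sum leaned on Lyz2, the most abundant member, at 144% of control on day 5 and 79.2% on day 7. The median log2 fold change of that class was −0.142 on day 5 and −0.663 on day 7. The day 7 sum of transcription factors held Runx1 at 148% of control, beside Spi1 at 56.0% and Irf8 at 53.5%. The log2 fold changes of the 40 members had an SD of 0.55 on day 7, against a median SE of 0.0892, and the 95% interval of 18 of the 40 held the median of the members. For 4 members, Sall1, Olfml3, Runx1 and Unc93b1, cells outside the myeloid lineage are known to express the gene. Without them the SD on day 7 was 0.38, and 19 of 36 intervals held the median of −0.90. Sall1, Olfml3 and Runx1 were among the 4 members that rose on day 7, and Cd14, which also rose, was kept. The smaller SD therefore follows from leaving them out and is no separate result. The 37 genes left summed to 603 ± 49.5 scaled TPM in shRNA RUS, 56.3% of the control.

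Other genes of microglia were also mostly lower on day 7. Of 20 further signature genes 17 fell (85%, beside 25.8% of all genes), Mertk rose (named after its value was seen) and 2 were not called, with a median of −0.945. On day 5, 6 fell (30%, beside 17.9% of all genes) and none rose (beside 14.8%), with a median of −0.302; both lists were chosen by name with earlier results of these data known. Coro1a, an actin regulator of leukocytes, fell by 1.19 ± 0.084 (limma, adjusted p = 3.5e-06) on day 7. Vsir, an immune checkpoint receptor, fell by 0.91 ± 0.12 (limma, adjusted p = 0.0002). On the same day Crybb1 was not called (log2 fold change 0.15 ± 0.094, limma, adjusted p = 0.22).

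Genes of disease-associated microglia were split. Of 13 tested, 7 rose (53.8%, beside 14.8% of all genes) and 2 fell (15.4%, beside 17.9%) on day 5, and 5 rose (38.5%, beside 23.4%) and 4 fell (30.8%, beside 25.8%) on day 7. The 4 with the largest mean TPM, Apoe, Ctsb, Ctsd and Cd63, are known from astrocytes and progenitors as well. Those that fell, named after their values were seen, were Spp1 and Lpl on both days and Cst7 and Cd9 on day 7. Spp1 went from 112 ± 8.09 scaled TPM in shRNA CON to 58.8 ± 7.69 in shRNA RUS on day 7. Axl and Clec7a, also named after their values were seen, were higher in shRNA RUS on day 7 without overlap. Axl lay at 50.72 to 54.35 scaled TPM in shRNA CON and at 119 to 138 in shRNA RUS. Clec7a lay at 1.255 to 1.611 and at 1.713 to 2.695. Apoe, a lipid carrier, lay at 6465, 7185, 7525 and 9355 scaled TPM in shRNA CON on day 5 and at 14539, 14646, 14796 and 8904 in shRNA RUS, where replicate 4 lay within the control range. It rose by 0.78 ± 0.18 (limma, adjusted p = 0.0106), and on day 7 it rose by 0.46 ± 0.043 (limma, adjusted p = 2.1e-05). The lysosomal proteases Ctsb and Ctsd rose by 0.57 ± 0.055 (limma, adjusted p = 9.9e-05) and rose by 0.46 ± 0.064 (limma, adjusted p = 0.00062) on day 5. On day 7 Ctsb rose by 0.84 ± 0.039 (limma, adjusted p = 3.5e-07), and Ctsd was not called (log2 fold change −0.078 ± 0.033, limma, adjusted p = 0.0794). Cd63, a lysosomal tetraspanin, rose by 0.50 ± 0.061 (limma, adjusted p = 0.00035) and rose by 0.54 ± 0.041 (limma, adjusted p = 5.2e-06) on the 2 days.

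Among 13 inflammatory genes, 2 of 11 tested rose (18.2%, beside 14.8% of all genes) and none fell on day 5, and 1 of 12 rose (8.33%, beside 23.4%) and 5 fell (41.7%, beside 25.8%) on day 7. Nfkbia, the inhibitor of NF-kappaB, rose by 0.72 ± 0.077 (limma, adjusted p = 0.00016) on day 5 and rose by 0.63 ± 0.047 (limma, adjusted p = 4.8e-06) on day 7. The interferon-induced chemokine Cxcl10 fell by 1.29 ± 0.23 (limma, adjusted p = 0.00108) on day 7, and the monocyte chemokine Ccl2 fell by 2.54 ± 0.20 (limma, adjusted p = 7e-06). Tlr2, a Toll-like receptor, fell by 0.95 ± 0.14 (limma, adjusted p = 0.00029). All 6 genes of dividing cells listed fell on both days (100%, beside 17.9% of all genes on day 5 and 25.8% on day 7). Cdk1 went from 141 ± 3.14 scaled TPM in shRNA CON to 42.7 ± 6.02 in shRNA RUS on day 7. The part of a change in division in the lower myeloid genes was not tested. The counts of genes of other cells on day 7 stand beside 23.4% of all genes higher and 25.8% lower. Of those tested, 6 of 8 oligodendrocyte lineage genes (75%) fell and none rose (median log2 fold change −0.596), 1 of 6 endothelial genes (16.7%) rose and 2 (33.3%), Kdr and Ly6c1, fell (median 0.159), with the defining genes Cldn5 and Cdh5 at or near 0 and not tested, and 3 of 6 mural and fibroblast genes (50%) rose and none fell (median 0.628). Neuronal genes were split, 3 of 8 higher and 3 lower (37.5% each, median 0.0822), as were astrocyte genes, 3 of 8 higher (37.5%) and 2 lower (25%, median 0.0383), and neural stem cell genes, 2 of 6 higher and 2 lower (33.3% each, median 0.0562). The part of these other cells in the scaled levels of the members was not tested.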

How the data were processed

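PolyA RNA of the 16 libraries was sequenced on a NextSeq instrument, and the authors aligned reads with STAR to mm10, quantified genes with RSEM on release GRCm38.99 of the annotation and compared groups with DESeq2; tool versions and strand of counting are not given in the sources used here. The authors deposited 1 table per day with TPM per library, which sums to the same total in every library and keeps no depth. The same tables hold their fold changes, errors and p-values, which were not used, and a mean of normalized counts over the libraries of a day (a signal, deposited by the authors), which was printed as read support only.

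To scale TPM, each library was divided by its median ratio to a reference, namely the geometric mean of every gene, over genes with at least 1 TPM in all libraries of the fit. Printed levels use the factors of all 16 libraries, while the fold changes of a day use those of its 8 libraries. Genes that averaged 0.1 TPM or more were fitted with limma 3.58.1 (R 4.3.3; two-sided, eBayes with trend, Benjamini-Hochberg adjustment over all genes tested, threshold 0.05) on log2(scaled TPM + 0.1), for each day on its own and, for time and interaction, over 16 libraries and the lines that both tables share. The fits were tested on simulated data. Ratios were computed with Python 3.11.15, numpy 2.4.6 and pandas 2.3.3, and gene positions are GENCODE annotation on GRCm38.

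The members and gene lists were chosen with earlier results of these data known. Values in every library are given for the genes of the ratio test, Tyrobp, Aif1, Spi1, every member called in the interaction and the extremes of each class, and for each list up to 4 genes with the largest mean TPM; a gene that this rule names is not reported here. Alternatives changed the added value, the filter, the scaling, the trend, the replicate block, the members or the reference gene, or left out 1 library. Of the 41 members, 15 overlap another annotated gene, 8 of them on the opposite strand. Values of genes that share reads with a copy or an overlapping gene are uncertain.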

Additional observations from a re-analysis of the deposited data

Results flagged for a closer look

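The effect of shRNA RUS differed between day 5 and day 7 for 31 of the 40 members tested, by the interaction term of limma at an adjusted p of 0.05. Differences are day 7 minus day 5 on the log2 scale. The largest were those of Fcer1g by −1.37, Trem2 by −1.37, Pf4 by −1.33, Cd52 by −1.18, Ncf1 by −1.14, C1qc by −1.12, Ctss by −1.04, C1qa by −1.04, Tyrobp by −1.03 and C1qb by −1.01. Next came Aif1 by −1.01, Ly86 by −0.99, Cd68 by −0.98, Lyz2 by −0.87, Fcrls by −0.84, Cd53 by −0.84, Itgam by −0.84, Selplg by −0.79, Csf1r by −0.75 and P2ry13 by −0.75. The smallest called were Cx3cr1 by −0.71, Irf8 by −0.70, Mpeg1 by −0.70, Inpp5d by −0.68, Fcgr3 by −0.62, Ptprc by −0.54, Tmem119 by −0.54, Itgb2 by −0.53, Apbb1ip by −0.41 and Laptm5 by −0.40. Of these calls, Tmem119 was lost in 15 of 24 alternatives, Apbb1ip in 12, Ptprc in 10, Pf4 in 5 and Itgb2 and Laptm5 in 1 each. Sall1 differed in the other direction, by 0.63. Their SE lay between 0.093 and 0.43. In the same fit, 14.6% of all genes had a lower and 15.2% a higher effect on day 7.

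In 6 of the 160 groups of 4 libraries (40 members in 4 groups), 1 library stood apart from the other 3 by Dixon's criterion, which chance alone meets in about 1 of 20 groups. C1qa was at 56.0 scaled TPM in replicate 4 of shRNA CON on day 5, while the other 3 libraries held 48.2 to 49.2. Fcrls was at 48.6 scaled TPM in replicate 3 of shRNA CON on day 7, while the other 3 libraries held 52.6 to 52.7. Csf1r was at 9.59 scaled TPM in replicate 1 of shRNA CON on day 5, while the other 3 libraries held 8.77 to 8.90. Fcgr3 was at 6.03 scaled TPM in replicate 2 of shRNA RUS on day 7, while the other 3 libraries held 7.31 to 7.38. Aif1 was at 7.97 scaled TPM in replicate 2 of shRNA CON on day 5, while the other 3 libraries held 5.59 to 5.70. Mpeg1 was at 18.9 scaled TPM in replicate 1 of shRNA CON on day 5, while the other 3 libraries held 15.5 to 15.9.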

How the results depend on the processing

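On day 5, 8 members were called lower and 7 higher. The 8 became 3 without a filter, 3 with quantile normalization and 14 with TPM as deposited, and the 7 became 4 with TPM as deposited. Leaving out 1 library gave 3 to 6 lower and 5 to 9 higher members. Over all alternatives, 7 of the 15 day 5 calls and 37 of the 39 day 7 calls held, P2ry12 and Mrc1 being the exceptions on day 7, as did 32 of 35 calls over time in shRNA CON, 15 of 27 in shRNA RUS and 25 of 31 of the interaction. On day 7, leaving out 1 library gave 33 to 35 lower members and 4 higher. Over time it gave 31 to 33 higher and 3 to 4 lower in shRNA CON and 18 to 23 higher and 4 to 5 lower in shRNA RUS, and for the interaction 26 to 31 lower and 1 higher. Without Sall1, Olfml3, Runx1 and Unc93b1, 1 member was higher on day 7, 1 was lower over time in shRNA CON and 3 in shRNA RUS, and 0 had a higher interaction, since these genes make up the rest. With TPM as deposited, 1 member was lower over time in shRNA RUS, 2 had a higher interaction, and the change over time in shRNA RUS turned positive and was called for Fcer1g (0.27) and Ctss (0.26), and turned positive without a call for P2ry12 (0.25) and Selplg (0.16); quantile normalization turned that of Ptprc (−0.012). The cause was not tested. Of the ratios, 5 on day 5 and 7 on day 7 were free of overlap; with Tyrobp as reference there were 3 and 3, with 1 added before the log2 there were 8 on day 5, and leaving out 1 library gave 5 to 6 and 7 to 8. Without counts, the limit that depth sets on low members such as Siglech and Cd74 is unknown.

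The replicate numbers did not pair the libraries: same-numbered libraries had correlations of their deviations between −0.105 and 0.0325, and not every library correlated best with its own number. With a replicate block, 5 members were higher and 3 lower on day 5, 4 and 34 on day 7, 32 and 3 over time in shRNA CON, 21 and 5 in shRNA RUS, and 1 and 27 in the interaction.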
